A study of Mus musculus with 6 samples.

Results

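The aminoacyl-tRNA synthetases are the enzymes that join each amino acid to its transfer RNA, and 36 of their genes, 20 for cytosolic and 16 for mitochondrial enzymes, were followed through the authors' deposited table of 37757 rows. Members were the rows whose gene name equalled a name on a fixed list, and all 36 were among the 14748 rows that the authors tested. Gene expression was measured by mRNA sequencing of epithelial cells taken from the kidneys of 8-week-old C57/Bl6J mice, with 3 libraries of attached cells and 3 of cells held in suspension for 4 h. Both groups carry the genotype Bim-/- Bmf-/-, the loss of a pair of BH3-only proteins that promote apoptosis, so neither is a wild-type control. The titles of the suspended samples name anoikis, cell death after loss of attachment, and the comparison asks which transcripts differ when such cells are detached. Whether the libraries, labelled independent, stem from different cultures or mice is not given in the labels, so the authors' p-values may reflect technical spread alone.

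Each synthetase is named for its amino acid by a letter before "ars", and most symbols ending in 2 belong to the mitochondrial enzyme, which is also encoded in the nucleus. Gars and Kars are exceptions, since each gene makes both the cytosolic and the mitochondrial enzyme. Animal cells tie several cytosolic synthetases together in a multi-synthetase complex on scaffold proteins, while the others work free of it. When amino acids run short, uncharged transfer RNA activates the kinase GCN2, and the transcription factor ATF4 that follows is known to raise many cytosolic synthetase genes.

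The deposited table gives 1 FPKM (fragments scaled to transcript length and library size) per gene and condition, a log2 fold change of suspended over attached, a p and an adjusted p (q). Calls are the authors' q below 0.05 from Cuffdiff. Its columns name the conditions only by letter codes, and the code ending in A was read as attached and the one ending in S as suspended, so every direction rests on that reading. The depth is unknown and no value per library was analysed here, so no spread between replicates can be shown. All 8 kidney epithelial markers were expressed, and of these 3 were called higher and 4 lower. Epcam stood at 261 FPKM attached and 253 suspended, while Cdh1 rose from 95.4 to 201 FPKM, and the nephron factors Pax2 and Pax8 fell from 150 to 30.9 and from 104 to 37.1 FPKM (q = 0.000185 for these 3), per the authors' deposited table. Of the markers of other cells, 4 of 4 endothelial, 3 of 3 podocyte, 4 of 6 fibroblast and 5 of 8 leukocyte genes stayed under 1 FPKM in both conditions, Cd3e and Itgam among the leukocyte genes. The summed leukocyte list moved from 25.9 to 50.8 FPKM, mostly as Cd68 (23.4 to 34.9 FPKM) and Ptprc (1.42 to 12.4 FPKM), per the authors' deposited table. With Csf1r (0.729 to 3.25 FPKM, q = 0.0271), all 3 leukocyte genes that the authors tested were called higher, where 24.7% of all tested rows were. The mitochondrial transcript mt-Cytb moved from 1076 to 3310 FPKM (q = 0.000185) per the same authors' deposited table. The part of these shifts in the results on the synthetases was not tested. In bulk RNA, fewer cells of a type and less RNA per cell cannot be told apart.

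Synthetase transcripts were lower in suspension in both compartments, and none was called higher. The authors' deposited table called 19 of 20 cytosolic and 10 of 16 mitochondrial genes lower, where 26.3% of all tested rows were called lower, and 0 of 36 higher, where 24.7% of all tested rows were called higher. The tyrosine, methionine and tryptophan enzymes Yars, Mars and Wars fell most in the cytosol, and Yars2 and Vars2 among the mitochondrial enzymes. The median log2 fold change was -0.72 over the cytosolic and -0.65 over the mitochondrial members, against -0.04 over all tested rows. A median of -0.72 stands for a transcript level 39.1% lower, and one of -0.65 for a level 36.5% lower.

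Of the 36 members, 34 had a negative and 2 a positive log2 fold change. With the raw p below 0.05 in place of q, 30 members would be called, 0 of them higher, per the authors' deposited table (Cuffdiff). The median over genes with 1 FPKM or more attached and suspended was -0.11, and relative to that shift the medians became -0.61 (cytosolic) and -0.55 (mitochondrial). After that centring 33 members were negative and 3 positive, Dars having crossed to 0.0063. Calls depend on level, so the same count was taken over tested rows of like level: 36.8% were called lower within the range of mean FPKM of the cytosolic members and 29.6% within that of the mitochondrial members other than Lars2.

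**Figure D1:**
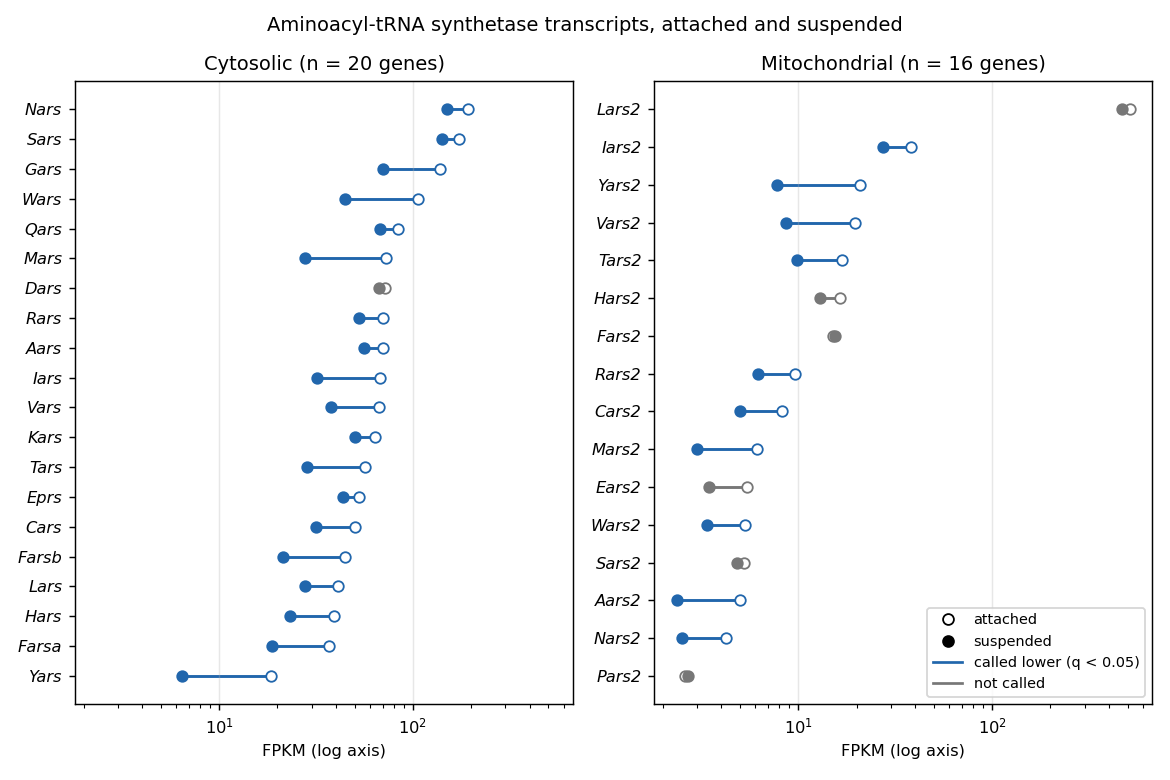
FPKM of each synthetase gene on a log axis, 1 value per condition, as the authors deposited it (open: attached, filled: suspended), with cytosolic enzymes on the left, mitochondrial enzymes on the right and lines coloured by call. Filled circles lie to the left of open circles for 34 of 36 genes, and Lars2 stands apart at 513 and 465 FPKM.

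In the cytosol the levels of attached cells ran from 18.5 FPKM for Yars to 193 FPKM for Nars, a 10.4-fold range, per the authors' deposited table. In suspension the range widened to 23.1-fold, from 6.45 to 149 FPKM, because the lowest gene fell most and the highest fell little. Every cytosolic value quoted from here has q = 0.000185, the smallest q per the authors' deposited table, unless another is given; 19 members share it, and it is a floor, not a measured size.

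Yars (chr4:129189760-129219607), the tyrosine enzyme, fell from 18.5 to 6.45 FPKM, a log2 fold change of -1.52, per the authors' deposited table. Mars (chr10:127296221-127311786), the methionine enzyme, which serves both initiation and elongation, fell from 72.6 to 27.7 FPKM (log2 -1.39) per the authors' deposited table. Wars (chr12:108860030-108894174), the tryptophan enzyme, known also as a target of interferon gamma, fell from 107 to 44.5 FPKM (log2 -1.26) per the authors' deposited table. These were the largest falls among cytosolic members, between 58.3% and 65.2% of the attached level.

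Iars (chr13:49682100-49734267), the isoleucine enzyme, fell from 67.4 to 31.9 FPKM (log2 -1.08) per the authors' deposited table. The phenylalanine enzyme is built from paired alpha and beta subunits, and both fell: Farsb (chr1:78417975-78488897), the beta subunit, from 44.5 to 21.5 FPKM and Farsa (chr8:84856989-84869257), the alpha subunit, from 37.1 to 18.7 FPKM per the authors' deposited table. The ratio of Farsa to Farsb was 0.835 attached and 0.873 suspended, so the subunit transcripts fell by nearly the same factor. With Yars, Mars, Wars, Iars and Farsb, 5 of 20 cytosolic members were called lower by at least 2-fold, where 7.12% of all tested rows were.

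Farsa, Tars and Gars lay just short of 2-fold. Tars, the threonine enzyme, fell from 56.5 to 28.5 FPKM (log2 -0.99) per the authors' deposited table. Gars, whose gene also supplies the mitochondrial glycine enzyme, fell from 138 to 69.9 FPKM (log2 -0.99) per the authors' deposited table. Smaller falls were listed for the valine enzyme Vars, from 67.0 to 37.7 FPKM, the histidine enzyme Hars, from 39.2 to 23.2, and the cysteine enzyme Cars, from 50.4 to 31.5 FPKM, per the authors' deposited table. The leucine enzyme Lars went from 41.3 to 27.9 FPKM (log2 -0.57) and the arginine enzyme Rars from 70.5 to 52.8 FPKM (log2 -0.42) per the authors' deposited table. With a 1.5-fold minimum, 11 of 20 cytosolic and 9 of 16 mitochondrial members were called lower, against 16.5% of all tested rows.

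Among the 5 most abundant cytosolic members, Nars, Sars and Qars fell little. Nars, the asparagine enzyme and the highest of them, went from 193 to 149 FPKM (log2 -0.37, q = 0.000982) per the authors' deposited table. Sars, the serine enzyme, went from 173 to 141 FPKM (log2 -0.30, q = 0.0278) per the authors' deposited table. Qars, the glutamine enzyme, went from 83.5 to 67.8 FPKM (log2 -0.30, q = 0.0170) per the authors' deposited table. Gars and Wars, which lie between Sars and Qars in attached level, fell by 49.5% and 58.3%. Kars, which also supplies mitochondria with the lysine enzyme, went from 64.1 to 50.2 FPKM (q = 0.00321), the alanine enzyme Aars from 70.2 to 56.2 FPKM (q = 0.00945) and Eprs, a bifunctional enzyme for glutamate and proline, from 52.9 to 43.5 FPKM (q = 0.0175), per the authors' deposited table.

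Dars, the aspartate enzyme, was the only cytosolic member not called, at 71.5 FPKM attached and 66.6 suspended (log2 -0.10, q = 0.457) per the authors' deposited table. Taking its deposited p as a two-sided normal p implies a 95% interval of -0.31 to 0.11 for that log2 fold change. The interval reaches the size of the falls of Sars and Qars. The deposited test scores are smaller in size than this reading of p gives, so all implied intervals given here may be too narrow.

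**Figure D2:**
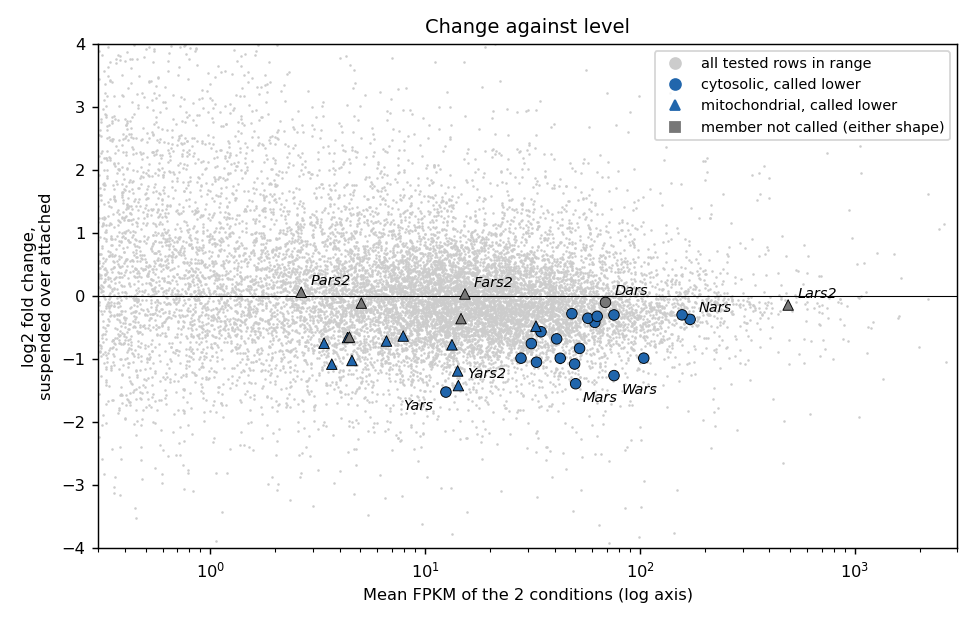
Each point is a gene, placed by its mean FPKM over both conditions (log axis) and its log2 fold change per the authors' deposited table, with all tested rows in grey and synthetases as circles (cytosolic) or triangles (mitochondrial). Blue members were called lower and grey ones were not; 34 of 36 lie below 0, from -0.10 (Dars) down to -1.52 (Yars) in the cytosol.

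The 8 cytosolic members of the multi-synthetase complex varied widely. Their log2 fold changes ran from -0.10 (Dars) to -1.39 (Mars) with a median of -0.38, and 7 of 8 were called lower. Among the 12 free cytosolic members all were called lower, from -0.30 (Sars) to -1.52 (Yars), with a median of -0.91. Both counts stand beside 36.8% of tested rows of like level and 26.3% of all tested rows called lower. Mars and Iars were the complex members that fell by 2-fold or more, while Eprs, Qars, Kars and Rars stayed between -0.28 and -0.42. The difference between the medians was not tested. The non-enzyme scaffolds of the complex were all called lower, where 26.3% of all tested rows were. Eef1e1 fell from 59.2 to 23.9 FPKM (q = 0.000185), Aimp2 from 31.2 to 19.5 (q = 0.0124) and Aimp1 from 52.6 to 42.3 FPKM (q = 0.0174) per the authors' deposited table.

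Synthetases come in a pair of unrelated catalytic folds, class I and class II. In the cytosol 9 of 9 class I enzymes and 9 of 10 class II enzymes were called lower, beside 36.8% of tested rows of like level, with median log2 fold changes of -0.83 and -0.56; Eprs, which holds a domain of each, is left out of this count. Among mitochondrial members 7 of 9 class I and 3 of 7 class II enzymes were called lower, beside 29.6% at like level, with medians of -0.66 and -0.36. All 3 of the members with the largest cytosolic falls, Yars, Mars and Wars, are class I enzymes. These subgroups are described only, with no test.

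Promoters were searched for the C/EBP-ATF response element, the site type through which ATF4 acts (TGATGNAA, both strands), and for the E-box, a site type bound by MYC (CACGTG, which reads the same on both strands). RefSeq (GRCm38.p6) promoters of 250 bases before and 50 bases after the start matched 27 of the 36 members, 13 cytosolic and 14 mitochondrial; those of Cars, Hars, Hars2, Lars, Nars, Pars2, Rars, Vars and Wars did not match. The C/EBP-ATF letters stood in 5 of 13 cytosolic promoters, those of Aars, Gars, Iars, Tars and Yars, and in 0 of 14 mitochondrial ones, where 4.51% of all 27025 genes with a promoter hold them. All 5 were called lower, as were 19 of 20 cytosolic members and 36.8% of tested rows of like level. Their log2 fold changes ran from -0.32 (Aars) to -1.52 (Yars), with a median of -0.99, beside -0.33 for the 8 matched cytosolic members without these letters. The cytosolic members without a matched promoter, from -0.37 (Nars) to -1.26 (Wars), are in neither group. The difference between the medians was not tested. The E-box stood in 4 of 13 cytosolic promoters (Aars, Farsb, Iars and Tars) and 1 of 14 mitochondrial ones (Ears2), where 8.09% of genes hold it. No match of one motif overlapped a match of the other. A match is a description of letters and not a bound site.

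The 30-base windows around the C/EBP-ATF letters of Yars, Iars, Tars and Gars are shown to let the sites be compared, each 5′ to 3′ on the gene's strand with the matched letters in capitals. They lie at chr4:129189895-129189924 (Yars, plus strand), chr13:49682126-49682155 (Iars, plus), chr15:11399655-11399684 (Tars, minus) and chr6:55037960-55037989 (Gars, plus).
Yars: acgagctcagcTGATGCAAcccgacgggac
Iars: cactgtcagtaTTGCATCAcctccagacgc
Tars: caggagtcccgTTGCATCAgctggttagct
Gars: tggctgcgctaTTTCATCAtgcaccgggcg
Iars and Tars carry the same 8 letters, Yars carries their reverse complement, and Gars carries another spelling of the searched letters. The sites begin 4 and 8 bases after the RefSeq start in Yars and Iars, and 15 and 30 bases before it in Tars and Gars.

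The 250 bases before the start are shown for the members with the largest falls whose matches lie there, with the C/EBP-ATF letters (Tars) and the E-box (Iars and Farsb) in capitals. They cover chr15:11399659-11399908 on the minus strand (Tars), chr13:49681880-49682129 on the plus strand (Iars) and chr1:78488898-78489147 on the minus strand (Farsb).
Tars: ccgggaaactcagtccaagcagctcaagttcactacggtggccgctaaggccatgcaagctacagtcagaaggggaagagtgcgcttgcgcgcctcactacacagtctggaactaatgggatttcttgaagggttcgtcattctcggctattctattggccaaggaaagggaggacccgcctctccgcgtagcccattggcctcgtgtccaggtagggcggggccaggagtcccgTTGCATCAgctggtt
Iars: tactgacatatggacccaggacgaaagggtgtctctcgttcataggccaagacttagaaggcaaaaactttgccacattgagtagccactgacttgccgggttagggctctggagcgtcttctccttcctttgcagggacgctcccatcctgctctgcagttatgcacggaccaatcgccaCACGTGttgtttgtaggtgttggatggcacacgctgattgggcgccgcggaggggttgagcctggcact
Farsb: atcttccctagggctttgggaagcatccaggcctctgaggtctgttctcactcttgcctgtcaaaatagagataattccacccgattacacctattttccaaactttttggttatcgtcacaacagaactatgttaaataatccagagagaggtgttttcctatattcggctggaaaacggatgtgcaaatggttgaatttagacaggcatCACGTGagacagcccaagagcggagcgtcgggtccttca
The E-box begins 69 bases before the start in Iars and 39 in Farsb, while the C/EBP-ATF letters of Tars end 8 bases before its start. The transcript of Myc, which encodes an E-box factor, went from 55.4 to 31.6 FPKM and that of Atf4 from 250 to 180 FPKM (q = 0.000185 for both) per the authors' deposited table. Cebpb, which encodes a C/EBP factor, moved the other way, from 28.0 to 91.2 FPKM (log2 1.70, q = 0.000185), per the authors' deposited table. Of the other genes listed with Myc, Mycn fell from 8.30 to 0.322 FPKM (log2 -4.69, q = 0.000185) per the authors' deposited table. Max was not called, at 43.3 and 39.8 FPKM (q = 0.401), per the authors' deposited table. The protein levels and binding of these factors were not analysed here.

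Mitochondrial enzymes stood at lower levels, with a median of 8.91 FPKM attached and 5.60 suspended, against 67.2 and 40.6 FPKM in the cytosol, per the authors' deposited table. In attached cells 12 of 16 mitochondrial members lay below the lowest cytosolic one. Yars2 (chr16:16302965-16309640), the tyrosine enzyme, fell most, from 20.8 to 7.77 FPKM (log2 -1.42, q = 0.000185), per the authors' deposited table. Vars2 (chr17:35655634-35667592), the valine enzyme, fell from 19.7 to 8.64 FPKM (log2 -1.19, q = 0.000185) per the authors' deposited table. Aars2 (chr17:45506841-45520843), the alanine enzyme, fell from 4.995 to 2.36 FPKM and Mars2 (chr1:55237177-55248470), the methionine enzyme, from 6.12 to 3.01 FPKM (q = 0.000185 for both) per the authors' deposited table. These 4 were the mitochondrial members called lower by at least 2-fold, where 7.12% of all tested rows were.

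Falls of 28.2% to 41.5% were listed for the other 6 called mitochondrial members. Tars2 went from 16.8 to 9.84 FPKM and Wars2 from 5.33 to 3.38 FPKM (q = 0.000185 for both), for threonine and tryptophan, per the authors' deposited table. Rars2, for arginine, went from 9.61 to 6.19 FPKM (q = 0.000518), and Nars2, for asparagine, from 4.25 to 2.53 FPKM (q = 0.0117), per the authors' deposited table. Cars2, for cysteine, went from 8.21 to 5.01 FPKM with the highest q of the called mitochondrial members (0.0190) per the authors' deposited table. Iars2, for isoleucine and the second most abundant mitochondrial member, went from 38.2 to 27.4 FPKM (q = 0.00489) per the authors' deposited table.

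The 6 mitochondrial members that were not called fall into cases of different kinds. Ears2, for glutamate, lay just outside the threshold, at 5.42 and 3.45 FPKM (log2 -0.65, q = 0.0588), per the authors' deposited table, and its implied 95% interval is -1.24 to -0.07. Its deposited test score of -1.235 is smaller in size than that reading of p gives, so an interval that holds 0 is possible. Hars2, for histidine, stood at 16.5 and 12.9 FPKM (q = 0.293) with an implied interval of -0.90 to 0.19, wide enough to hold the fall of Hars, per the authors' deposited table. Sars2, for serine, stood at 5.24 and 4.85 FPKM (q = 0.613, interval -0.44 to 0.22) per the authors' deposited table. Pars2, for proline, had the lowest attached level of all members and the widest interval, at 2.59 and 2.71 FPKM (q = 0.896, interval -0.56 to 0.68), per the authors' deposited table. Fars2, for phenylalanine, stood at 15.1 and 15.5 FPKM (q = 0.860) per the authors' deposited table. Its interval of -0.22 to 0.29 does not reach the median log2 fold change of the mitochondrial members, and the difference was not tested. Just inside the threshold among all members was Sars (q = 0.0278) and just outside it Ears2.

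Lars2 (chr9:123366927-123462666), the mitochondrial leucine enzyme, stood far above every other synthetase, at 513 FPKM attached and 465 suspended (log2 -0.14, q = 0.318), per the authors' deposited table. That was 13.4 times the next mitochondrial member and 2.66 times the highest cytosolic one in attached cells, and Lars2 made up 74.1% of the summed mitochondrial FPKM. These are levels as listed: coverage along the gene was not analysed here, so whether the reads cover the whole Lars2 transcript is unknown, and the level should be read with that caution. Its implied interval of -0.37 to 0.08 does not reach the log2 fold change of Lars (-0.57), but it leaves out the spread of Lars. The difference between Lars2 and Lars was not tested. Without Lars2 the summed FPKM of the mitochondrial members was 35.4% lower in suspension, with it 16.1% lower, and the cytosolic sum was 34.4% lower. The count of mitochondrial members called lower was 10 either way, and their median without Lars2 was -0.66.

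Matching the enzymes by amino acid gave 17 pairs of a cytosolic and a mitochondrial gene, with Eprs paired with both Ears2 and Pars2, and Fars2 with both Farsa and Farsb. Both genes were called lower in 10 pairs and the cytosolic one alone in 7, where 26.3% of all tested rows were called lower. A pair with the mitochondrial gene alone called could not occur, since Dars, the only cytosolic member not called, is in no pair. The mitochondrial log2 fold change was the more negative in 6 pairs and the cytosolic in 11. For tyrosine both enzymes led their compartment, Yars at -1.52 and Yars2 at -1.42, and for methionine both fell by 2-fold or more, Mars at -1.39 and Mars2 at -1.02. Alanine showed the reverse order, with Aars at -0.32 and Aars2 at -1.08, and phenylalanine the widest gap, with Farsb at -1.05 and Fars2 at 0.03. Cytosolic FPKM exceeded mitochondrial FPKM in 15 of 17 pairs in each condition, and the exceptions were leucine and tyrosine. Differences within pairs were not tested.

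**Figure D3:**
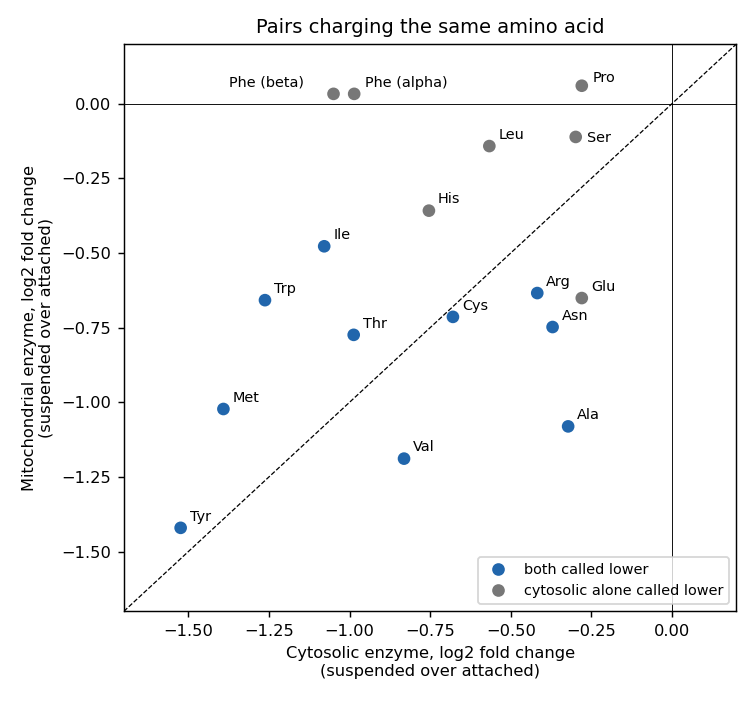
Each point is a pair of enzymes charging the same amino acid, with the log2 fold change of the cytosolic gene on the horizontal and of the mitochondrial gene on the vertical axis, and the dashed line marks equal change (authors' deposited table). Tyrosine lies at the lower left near the line, alanine below it at -0.32 and -1.08, and the phenylalanine pairs at the top with Fars2 at 0.03.

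Genes that work beside the synthetases were read from lists chosen for their role, and their counts stand beside 26.3% of all tested rows called lower and 24.7% higher. Of 10 genes for transfer RNA export and maturation 8 were called lower and 0 higher, among them Trnt1, which adds the CCA end to transfer RNA (68.1 to 26.8 FPKM), and Xpot, the export receptor (33.8 to 15.0 FPKM, q = 0.000185 for both), per the authors' deposited table. Of 13 RNA polymerase III genes, whose product transcribes transfer RNA genes, 3 were called lower, a share near that of all tested rows, 1 higher and 9 not, with a median log2 fold change of -0.19. Cytosolic elongation factors had 2 of 5 called lower and a median of -0.05, which centring turned to 0.05. The called ones were Eef1g (367 to 253 FPKM, q = 0.000185) and Eef1d (88.3 to 70.7 FPKM, q = 0.0187), per the authors' deposited table. Eef1a1, which carries charged transfer RNA to the ribosome, was not called, at 2221 and 2138 FPKM (q = 0.771) per the authors' deposited table. The difference between this list and the synthetases was not tested.

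On the mitochondrial side, 3 of 4 genes for the glutamyl-tRNA amidotransferase, which completes glutaminyl-tRNA in mitochondria, and for formylation of the initiator were called lower, where 26.3% of all tested rows were. Mtfmt, the formyltransferase, fell from 11.9 to 6.13 FPKM (q = 0.000185) per the authors' deposited table. Translation factors of mitochondria had 5 of 8 called lower and a median of -0.68, and mitochondrial ribosomal proteins 36 of 70 called lower and 1 higher, with a median of -0.38. The counts stand beside the same 26.3%, and the medians beside -0.65 for the mitochondrial synthetases and -0.04 for all tested rows.

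Of 8 genes for amino acid synthesis 7 were called lower, beside 26.3% of all tested rows, with a median log2 fold change of -1.04, Mthfd2, of mitochondrial one-carbon metabolism, falling from 64.0 to 22.6 FPKM (q = 0.000185) per the authors' deposited table. Amino acid transporters had 3 of 8 tested genes called higher and 2 lower, beside 24.7% and 26.3% of all tested rows. Of the 10 transporters listed, Slc7a5 had no matching row and Slc43a1 was not tested by the authors. Slc7a11, the cystine carrier, stood at 3.80 and 65.2 FPKM and Slc1a4 at 19.9 and 89.7 FPKM (q = 0.000185 for both) per the authors' deposited table. Slc7a1, a carrier of cationic amino acids, stood at 59.4 and 18.1 FPKM (q = 0.000185) per the authors' deposited table. The difference between these lists was not tested. Among sensors and factors of the amino acid response 3 of 9 were called higher and 5 lower, the lower ones including Nupr1 (1938 to 778 FPKM) and Eif2ak4, which encodes GCN2 (11.9 to 6.72 FPKM), and the higher ones Cebpb and Ddit3 (21.6 to 93.4 FPKM, q = 0.000185 for all), per the authors' deposited table. Ddit3 lies tail to tail with Mars and moved opposite to it, and the annotated exons of these neighbours share 68 bases on opposite strands.

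**Figure D4:**
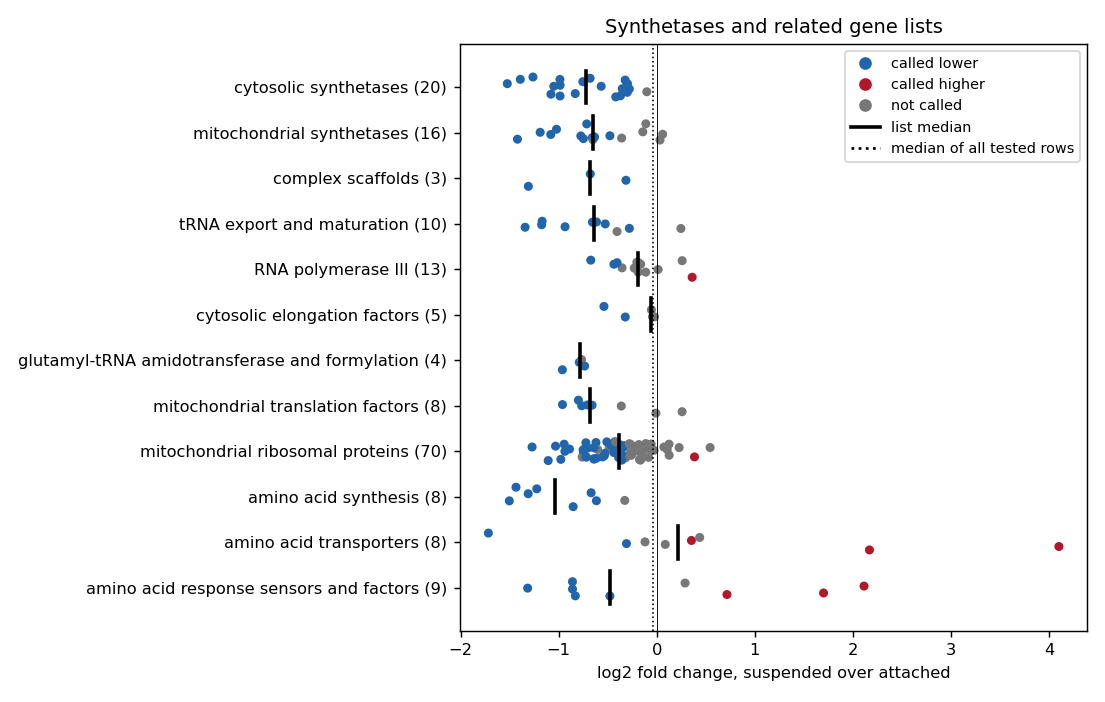
Each point is a tested gene of a list, with its authors' deposited log2 fold change (suspended against attached) on the horizontal axis and its call as colour, black bars at list medians and a dotted line at the median of all tested rows (-0.04). Synthetase medians lie at -0.72 and -0.65, amino acid synthesis at -1.04 and cytosolic elongation factors at -0.05 (0.05 once centred).

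In the annotation 10 of the 36 members share exonic bases with another protein-coding gene, and whether strand was counted is not given in the sources used here, so their values are less certain. The largest share is that of Iars2, with 22.9% of its exonic bases shared with Rab3gap2 on the opposite strand, followed by Aars, with 14.3% shared with Exosc6 on the same strand. Hars and Hars2 are transcribed away from each other and share 195 exonic bases. For Iars, a processed pseudogene, Gm4849, matches 1656 bases at 96.0% identity, so its reads may be split.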

How the data were processed

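Total RNA was DNase-treated and its messenger RNA sequenced by Illumina HiSeq, per the labels' protocols. TopHat, Bowtie, Cufflinks 1.0.3 and Cuffdiff with the build mm10 are named in the submitters' processing notes. Settings, annotation and strand use are not given in these sources. FPKM, the log2 fold change, the test score, the p-value and the q-value are used as deposited by the authors, per the file headers, with 1 FPKM per condition over its libraries. The column ending in A was taken as attached and the one ending in S as suspended, a reading of the letters. The depth per sample is unknown.

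The members and lists were chosen with earlier results of these data known. Calls are the authors' q below 0.05. The smallest deposited p is 5e-05. Intervals were implied from log2 fold change and p under a normal approximation, where p was above that floor. The deposited test scores are smaller in size than that approximation gives, so the intervals may be too narrow. Positions and exons come from GENCODE M21 (GRCm38, the build named in the notes), in which 36 members overlapped their deposited position. Copies were sought with BLAST+ 2.17.0 (at least 95% identity over 500 bases). A rule chose genes for values: members called with a log2 change of at least 0.58, the 5 highest and 3 lowest mean levels, pairs with 1 gene called or opposite directions, those nearest the threshold, and up to 3 called genes per list by size. The other members, the marker genes, Eef1a1, Eif2ak4, Atf4 and Max fall outside it and were chosen after their values were seen. Summaries were tested on simulated data. Python 3.11.15, pandas 2.3.3, SciPy 1.17.1, NumPy 2.4.6 and matplotlib 3.10.9 were used.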

Additional observations from a re-analysis of the deposited data

How the results depend on the processing

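For the cytosolic and the mitochondrial synthetases, the direction of the counts and medians held under the alternatives run: a q below 0.01, minimum folds, a recomputed Benjamini-Hochberg adjustment, a minimum of 5 FPKM, Gars and Kars left out or counted as mitochondrial, centring, pseudocounts of 1 and 0.1 and, chosen after seeing the data, leaving out Lars2. A minimum fold removed calls because small falls no longer count: 11 cytosolic and 9 mitochondrial members were called lower at 1.5-fold, and 5 cytosolic and 4 mitochondrial members at 2-fold. The cytosolic median minus the mitochondrial one was -0.06, and -0.15 with a pseudocount of 1, which shrinks changes of low genes. Centring turned the log2 fold change of Dars from -0.10 to 0.0063 and the median of the cytosolic elongation factors from -0.05 to 0.05. A q below 0.01 ended 5 of 29 calls, and the recomputed adjustment ended 0. No paired analysis was possible because the deposited columns hold 1 value per condition. For the same reason leaving out each replicate and limma per library were not run. Unknown depth leaves low members such as Pars2 with wide implied intervals.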
